A study of Mus musculus with 16 samples.

Results

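The 8 genes described here encode the enzymes that move high-energy phosphate in muscle cells: the creatine kinases Ckm, Ckb, Ckmt1 and Ckmt2, the adenylate kinase Ak1, and 3 enzymes of the purine nucleotide cycle, Ampd1, Ampd3 and Adssl1. They were taken by gene symbol, whatever their level, from a table of 31053 genes. mRNA was measured in 16 samples of C2C12, an immortalised mouse myoblast line that fuses into myotubes in culture. There were 4 groups of 4 samples, labelled as biological replicates 1 to 4: unedited (WT) myoblasts, WT myotubes, Fam134bKO myoblasts and Fam134bKO myotubes. The Fam134bKO cells lack Fam134b, a receptor that delivers endoplasmic reticulum to autophagy, and were made by lentiviral delivery of Cas9 with guide RNAs followed by antibiotic selection. All cells were kept in DMEM with 10% FBS, and myotubes formed spontaneously after confluency without a switch to a differentiation medium. Because all Fam134bKO samples derive from 1 edited line, the effect of the deletion and the properties of that line cannot be told apart.

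Creatine kinases transfer phosphate between ATP and creatine, so that phosphocreatine buffers ATP during contraction, and adenylate kinase recovers ATP from ADP, leaving AMP. In the purine nucleotide cycle, AMP deaminase converts AMP to IMP with release of ammonia, and adenylosuccinate synthetase and lyase rebuild AMP from IMP. In developing muscle the brain-type subunit Ckb is known to give way to the muscle-type subunit Ckm, and Ampd1 and Adssl1 are the muscle isoforms of their enzymes.

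The genes lie on 5 mouse chromosomes in GENCODE M21 (GRCm38): Ckm at chr7:19404776-19422841, Ckb at chr12:111669361-111672338, Ckmt1 at chr2:121357714-121363737, Ckmt2 at chr13:91853387-91876885, Ak1 at chr2:32621758-32635058, Ampd1 at chr3:103074014-103099720, Ampd3 at chr7:110768206-110812405 and Adssl1 at chr12:112620045-112641360. All are protein-coding, and Ckb and Ckmt2 are on the minus strand. RefSeq promoter windows (GRCm38.p6), each from 250 bases before to 50 bases after a transcription start, were at hand for 7 of the 8 genes, in 13 windows in all. The windows of Ckm, Ckb and Adssl1 are shown because these 3 genes were lower in Fam134bKO than in WT at both stages. Capitals mark matches, on either strand, to CAGCTG or to CACCTG, which are E-box sequences bound by myogenic factors, to the MEF2 site, to the CArG box and to TATAAA. The Ckm window is chr7:19410844-19411143 on the plus strand, the Ckb window chr12:111672289-111672588 on the minus strand and the Adssl1 window chr12:112619797-112620096 on the plus strand.
Ckm: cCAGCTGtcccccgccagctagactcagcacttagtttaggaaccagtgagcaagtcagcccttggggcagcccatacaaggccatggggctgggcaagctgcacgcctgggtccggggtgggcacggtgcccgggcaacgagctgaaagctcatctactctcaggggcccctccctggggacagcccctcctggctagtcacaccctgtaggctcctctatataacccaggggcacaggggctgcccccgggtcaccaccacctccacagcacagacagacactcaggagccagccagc
Ckb: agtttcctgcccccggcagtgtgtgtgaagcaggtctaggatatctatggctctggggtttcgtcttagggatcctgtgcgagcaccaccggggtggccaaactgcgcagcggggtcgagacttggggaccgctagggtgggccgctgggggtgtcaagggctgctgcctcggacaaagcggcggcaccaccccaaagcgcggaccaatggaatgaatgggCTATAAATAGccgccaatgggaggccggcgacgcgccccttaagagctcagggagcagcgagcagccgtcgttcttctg
Adssl1: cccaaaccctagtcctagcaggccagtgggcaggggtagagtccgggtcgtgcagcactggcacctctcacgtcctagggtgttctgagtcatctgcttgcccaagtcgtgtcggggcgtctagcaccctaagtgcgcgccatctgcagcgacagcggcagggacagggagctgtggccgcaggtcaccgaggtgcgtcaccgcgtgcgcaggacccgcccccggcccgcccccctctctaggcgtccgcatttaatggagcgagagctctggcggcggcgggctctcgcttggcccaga

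Counted from the start site, the Ckm window holds CAGCTG beginning at -249, at its outermost edge. The Ckb window holds a MEF2 site beginning at -29 that contains TATAAA, beginning at -28, so that these letters are a single stretch with 2 readings. The Adssl1 window holds none of the 5 motifs, which says only that these letters are not in it. Among 32851 mouse promoter windows of the same length, 16.3% hold CAGCTG, 20.2% CACCTG, 0.557% the MEF2 site, 1.63% the CArG box and 13.6% TATAAA. Among the other members, a CAGCTG was found for Ak1 at -177 and, from another of its start sites, at -227, for Ckmt2 at -107 and for Ckmt1 at -1. CACCTG was found for Ak1, from a further start site, at -219 and -168, for Ampd3 at -122 and for Ckmt2 at -153. TATAAA was found for Ak1 at position 22 and for Ckmt1 at -31. A CArG box was found at -112 from 1 of the 3 Ampd3 start sites. These matches describe the sequence and were not tested against the expression values.

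The values are normalized counts, that is, reads per gene divided by a factor for each library. Libraries held 1484750 to 3287461 reads on genes, with the 2 lowest totals in Fam134bKO myotubes (1484750 to 2947336 across that group), so 3 reads, taken as the floor, correspond to a normalized count of 2.49 to 5.99. Fam134b mRNA stood at 13.3% of the WT mean in Fam134bKO myoblasts and 18.0% in Fam134bKO myotubes, with no overlap between genotypes at either stage (exact two-sided permutation test, p = 0.0286 for each, the smallest that 4 against 4 samples allow). Myotube markers (8 genes, among them Myog and Myh3) summed to 594 to 976 in WT myoblasts and to 4.15 to 10.4 in Fam134bKO myoblasts, where Myog and Actn2 had no read in any library. In myotubes the same sum was 11789 to 17493 in WT and 5866 to 7836 in Fam134bKO. Myoblast markers (6 genes, among them Myod1) summed to 1165 to 1985 in WT and 340 to 460 in Fam134bKO myoblasts and to 3749 to 5587 in WT and 1566 to 2390 in Fam134bKO myotubes. Pax7, among them, had no read in any Fam134bKO library and at most 3 in any WT myoblast library. It was too low to be tested. Myf5, also among these genes, did not follow the sum. Its log2 fold change in Fam134bKO against WT myoblasts was 0.68 (limma adjusted p = 0.0955). On differentiation of Fam134bKO cells Myf5 fell (-0.92, limma adjusted p = 0.0119), where the sum rose. Proliferation markers (4 genes) summed to 3049 to 3746 in WT and 2362 to 4161 in Fam134bKO myoblasts and to 1668 to 2732 in WT and 711 to 1201 in Fam134bKO myotubes. Fibroblast markers (5 genes) summed to 2260 to 4592, 3023 to 11545, 10007 to 16317 and 12295 to 24910 in the same order. Lum (0 in Fam134bKO myoblasts) and Thy1 (0 in both WT groups) had at most 3 reads in any library. Col1a1 rose on differentiation, with log2 fold changes of 2.07 in WT and 1.43 in Fam134bKO. It was higher in Fam134bKO than in WT myoblasts only (limma adjusted p = 0.0294). Dcn rose by 4.61 and 5.58, from at most 3 reads per library in WT myoblasts. It was higher in Fam134bKO than in WT myotubes only (1.57). Pdgfra passed in no comparison. Marker sums of adipocytes, endothelial cells, osteoblasts, macrophages and neurons stayed at or below 0.863, 1.94, 6.04, 24.2 and 37.4.

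**Figure D1:**
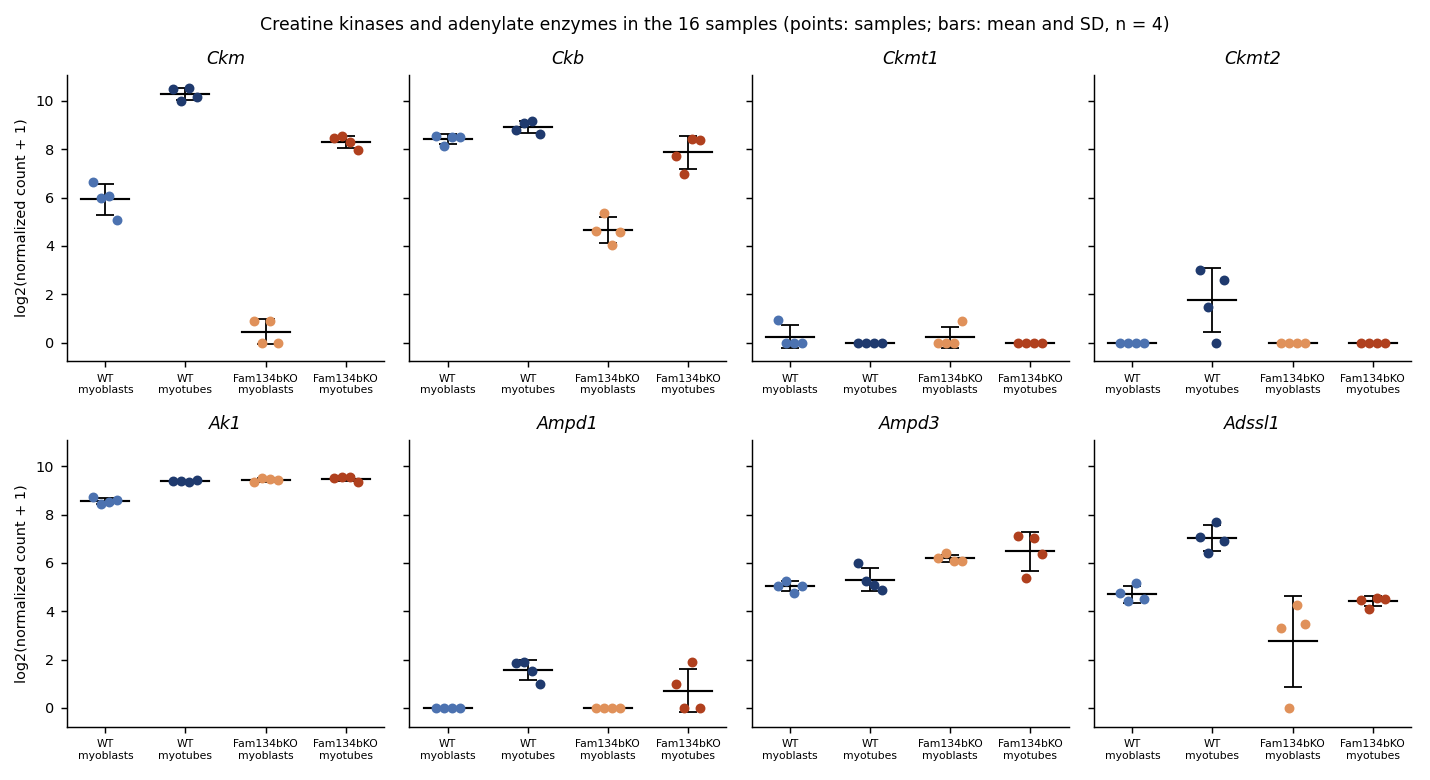
Level of each of the 8 genes in the 16 samples, as log2 of the normalized count plus 1 (y axis), by group (x axis). Points are samples and bars are the mean and SD over 4 samples; Ckm spans from 0 or 1 read in Fam134bKO myoblasts to 1008 to 1491 normalized counts in WT myotubes, while Ckmt1 and Ampd1 have at most 3 reads in any sample and Ckmt2 at most 8.

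Ckm, the cytosolic creatine kinase of differentiated muscle, was the member with the widest range. In WT myoblasts its normalized counts were 97.8, 61.7, 65.0 and 33.0 in replicates 1 to 4, and in WT myotubes they were 1424, 1008, 1491 and 1142. In Fam134bKO myotubes they were 350, 371, 314 and 248. Fam134bKO myoblasts held 1, 0, 1 and 0 reads of Ckm, below the floor in every library. The order was therefore WT myotubes, Fam134bKO myotubes, WT myoblasts and Fam134bKO myoblasts, and no group overlapped with another.

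Ckb, the brain-type cytosolic subunit, was already abundant in WT myoblasts, at 372, 277, 368 and 364, and WT myotubes had 445, 540, 568 and 396. In Fam134bKO myoblasts it stood at 23.6, 40.7, 15.6 and 22.5, and in Fam134bKO myotubes at 209, 125, 342 and 336. Fam134bKO myoblasts lay far below the other 3 groups, WT myotubes lay above both Fam134bKO groups, and the ranges of WT myoblasts and Fam134bKO myotubes overlapped. Of the last 500 bases of the annotated Ckb transcripts, 37.8% are in stretches of 31 bases that also occur in Ckb-ps1, Ckb-ps2 or Gm12892, and Ckb is uncertain in that respect; whether whole reads could be placed was not tested. None of the Ckm, Ak1, Ampd3 or Adssl1 ends had such stretches.

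The mitochondrial creatine kinases were hardly detected. Ckmt1, the ubiquitous form, had 1 read in WT myoblast replicate 1, 1 read in Fam134bKO myoblast replicate 4 and none elsewhere. Ckmt2, the sarcomeric form, had 8, 2, 0 and 5 reads in WT myotubes and none in the other 12 libraries. Its mean in WT myotubes was 3.41 normalized counts, close to the floor of 2.59 to 2.97 in those libraries, so no fold was computed. Neither gene was tested, since testing asked for normalized counts of 10 or more in 4 or more samples.

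Ak1, the cytosolic adenylate kinase, was the steadiest member. WT myoblasts had 417, 347, 368 and 384, and WT myotubes 667, 670, 658 and 681, an SD of 1.39% of the mean in the latter. Fam134bKO myoblasts had 648, 733, 707 and 688, and Fam134bKO myotubes 732, 741, 746 and 655. WT myoblasts stood below the other 3 groups, whose ranges overlapped.

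The AMP deaminases were low or moderate in all groups. Ampd1, the muscle isoform, had 3, 3, 2 and 1 reads in WT myotubes, 1, 0, 3 and 0 in Fam134bKO myotubes and none in any myoblast library, so it was at or under the floor throughout and was not tested. Ampd3, known as the erythrocyte isoform, had 32.3, 37.6, 26.0 and 32.1 in WT myoblasts and 62.2, 36.9, 32.5 and 28.7 in WT myotubes. Its values were 72.6, 83.0, 65.9 and 66.7 in Fam134bKO myoblasts and 139, 40.9, 129 and 81.9 in Fam134bKO myotubes. All 4 Fam134bKO myoblast samples were above all WT myoblasts, whereas the myotube groups overlapped. Fam134bKO myotube replicate 2 (40.9, 28 reads of Ampd3), one of the libraries with the fewest reads, lay below WT myotube replicate 1 (62.2). The other WT myotube samples lay below all Fam134bKO myotube samples. The cause of the overlap was not tested.

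Adssl1, the muscle adenylosuccinate synthetase, had 25.8, 20.3, 35.0 and 21.4 in WT myoblasts and 134, 83.7, 206 and 119 in WT myotubes. In Fam134bKO myoblasts it had 8.75, 0, 18.2 and 10.0 (10, 0, 21 and 12 reads), and in Fam134bKO myotubes 21.3, 16.1, 22.5 and 22.0. WT myotubes stood alone at the top, and WT myoblasts and Fam134bKO myotubes overlapped. In Fam134bKO the myotube range also overlapped with the myoblast range.

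Differentiation of WT cells was the first comparison, tested for 5 members (Ckm, Ckb, Ak1, Ampd3 and Adssl1) within a limma fit of 10767 genes with Benjamini-Hochberg adjustment and a threshold of 0.05. Ckm, Adssl1 and Ak1 rose, and Ckb and Ampd3 did not pass the test. Over all genes tested, 23.0% passed, 13.8% higher and 9.16% lower in myotubes; under quantile normalization the share of calls that were higher went from 60.1% to 49.7%. In bulk RNA, fewer cells of a type and less RNA per cell cannot be told apart, here or in the comparisons that follow.

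Mean Ckm went from 64.4 ± 26.5 to 1266 ± 229 normalized counts (SD, n = 4), a log2 fold change of 4.36 (SE 0.29, limma adjusted p = 6.1e-10). The ratio of reads, corrected for library factors, was 19.8 with a 95% counting interval of 17.5 to 22.4. Mean Adssl1 went from 25.6 ± 6.71 to 136 ± 51.6 (SD, n = 4), a log2 fold change of 2.32 (SE 0.58, limma adjusted p = 0.00642). Ak1 went from 379 ± 29.5 to 669 ± 9.32 (SD, n = 4), with a log2 fold change of 0.82 (SE 0.13, limma adjusted p = 7.54e-05). All myotube samples were above all myoblast samples for these 3 genes. The share of all genes with such a separation was not counted, here or in the other comparisons.

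For Ckb the WT means were 345 ± 45.7 and 487 ± 80.3 (SD, n = 4). The ranges did not overlap, but the log2 fold change of 0.49 had a 95% interval of -0.09 to 1.07 and a limma adjusted p of 0.219. With the spread estimated from the 8 WT samples alone, Ckb passed (adjusted p = 0.0329). Ampd3 had a log2 fold change of 0.26 with an interval of -0.39 to 0.91 (limma adjusted p = 0.584).

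In Fam134bKO cells the second comparison gave 3 members that rose, Ckm, Ckb and Adssl1, against a share over all genes of 33.4%, of which 17.3% rose and 16.1% fell. Ckm rose from 2 reads over all 4 myoblast libraries to 1089 over the myotube libraries. The corrected ratio of these reads was 768, with a counting interval of 212 to 6352, and the fitted log2 fold change of 7.86 (limma adjusted p = 4.91e-15) depended on the added constant, being 5.89 with a pseudocount of 5 and 8.58 with 0.5. In absolute terms the mean rose by 320 normalized counts in Fam134bKO and by 1202 in WT. Myotube markers changed in the same samples, as given above, and their part in these values was not tested.

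Ckb rose in Fam134bKO from 25.6 ± 10.7 to 253 ± 105 normalized counts (SD, n = 4), a log2 fold change of 3.23 (SE 0.28, limma adjusted p = 1.75e-08). Adssl1 rose by a log2 fold change of 1.66 (SE 0.58, limma adjusted p = 0.0314). Without Fam134bKO myoblast replicate 2, where it had no read, that value was 0.74 and missed the threshold (limma adjusted p = 0.0859). It also missed it without Fam134bKO myotube replicates 1, 3 or 4 (adjusted p = 0.0597, 0.0586 and 0.0518).

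Ak1 and Ampd3 did not pass in Fam134bKO. Ak1 means were 694 ± 35.6 in myoblasts and 719 ± 42.5 in myotubes (SD, n = 4), a log2 fold change of 0.05 with an interval of -0.21 to 0.31 (limma adjusted p = 0.794). Ampd3 had a log2 fold change of 0.29 (interval -0.36 to 0.94, limma adjusted p = 0.499). Without replicates 2 and 4 of Fam134bKO myotubes, the 2 libraries with the fewest reads, Ampd3 passed, at 0.89 (adjusted p = 0.0171).

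**Figure D2:**
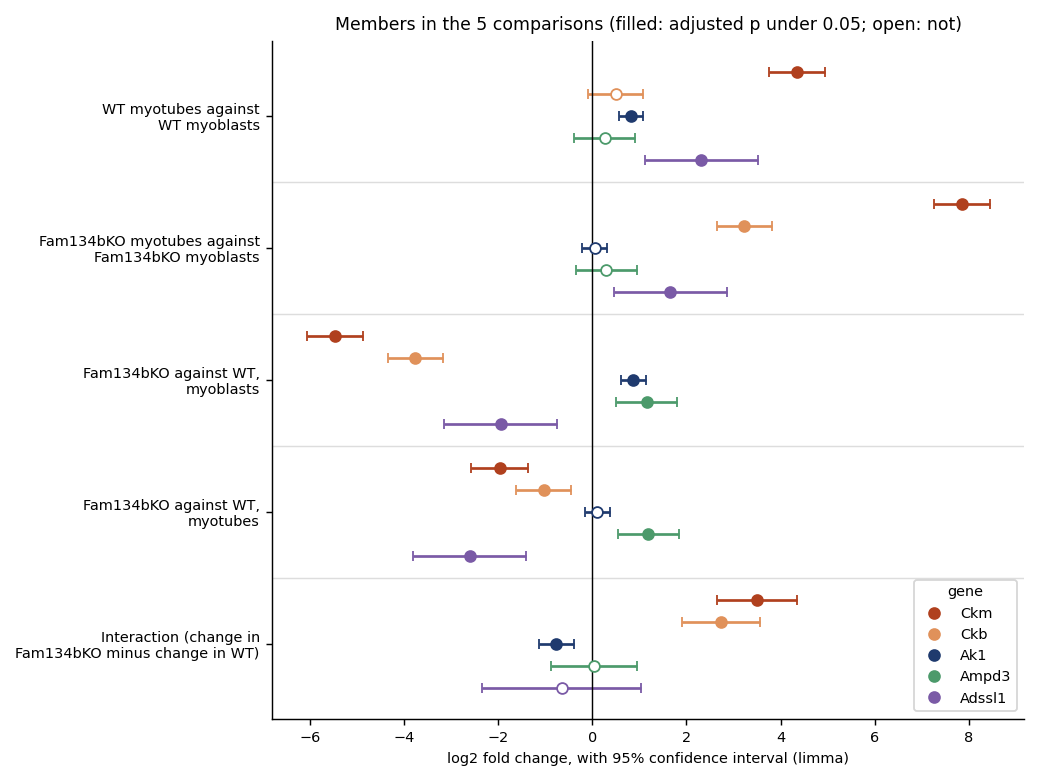
log2 fold change with its 95% confidence interval (x axis) of the 5 members tested, in each of the 5 comparisons (y axis); filled points had a limma adjusted p under 0.05. Ckm, Ckb and Adssl1 lie below 0 and Ampd3 above 0 in both comparisons of Fam134bKO with WT, and the interaction is above 0 for Ckm (3.50) and Ckb (2.73) and below 0 for Ak1 (-0.77).

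Between genotypes, myoblasts and myotubes were compared separately; these comparisons use the same samples as the previous ones and are not independent of them. In myoblasts all 5 members tested passed, 3 lower and 2 higher in Fam134bKO, where 15.8% of all genes passed, 7.26% higher and 8.5% lower. Ckm fell from 272 reads in WT to 2 reads, a corrected WT-to-Fam134bKO ratio of 151 with a counting interval of 41.3 to 1250. Its fitted log2 fold change was -5.48 (limma adjusted p = 6e-12), and -3.59 with a pseudocount of 5. Ckb fell by 3.77 on the log2 scale (SE 0.28, limma adjusted p = 1.41e-09), with a WT mean 13.5 times that of Fam134bKO.

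Adssl1 was also lower in Fam134bKO myoblasts, with a log2 fold change of -1.95 (SE 0.58, limma adjusted p = 0.0234). Without Fam134bKO myoblast replicate 2 it was -1.03, and without WT myoblast replicate 1 or 3 it missed the threshold (adjusted p = 0.0523 and 0.0743). Ak1 and Ampd3 were higher. Ak1 had a log2 fold change of 0.87 (SE 0.13, limma adjusted p = 2.54e-05) and Ampd3 of 1.15 (SE 0.31, limma adjusted p = 0.0131), with all Fam134bKO samples above all WT samples for both.

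In myotubes 4 of the 5 passed, where 23.4% of all genes passed, 9.74% higher and 13.7% lower. Ckm was lower in Fam134bKO, at 321 ± 54.0 against 1266 ± 229 (SD, n = 4), with a log2 fold change of -1.98 (SE 0.29, limma adjusted p = 4.45e-05) and a WT-to-Fam134bKO read ratio of 3.88 (counting interval 3.64 to 4.15). Ckb was lower by 1.04 on the log2 scale (log2 fold change -1.04, SE 0.28, limma adjusted p = 0.0104). Adssl1 was lower, at 20.5 ± 2.98 against 136 ± 51.6 (SD, n = 4), with a log2 fold change of -2.61 (SE 0.58, limma adjusted p = 0.00238). For these 3 genes every Fam134bKO sample was below every WT sample.

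Ampd3 was higher in Fam134bKO myotubes, at 97.7 ± 45.4 against 40.1 ± 15.1 (SD, n = 4), with a log2 fold change of 1.18 (SE 0.31, limma adjusted p = 0.00898) despite the overlap given above. Without the 2 libraries with the fewest reads it was 1.78. Ak1 did not pass, with a log2 fold change of 0.10 and an interval of -0.16 to 0.36 (limma adjusted p = 0.609). At the gene level Ampd3 exons overlap on the opposite strand with Rnf141, over 3.47% of their bases, and with B430319F04Rik, over 3.48%, and Ckm exons with A930016O22Rik, over 15.5%. Whether counting used strand was not given in the sources used here; Rnf141 stood at 30.6 to 78.4 in all samples and A930016O22Rik was at 0.

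The interaction asked whether the change on differentiation differed between genotypes. It passed for 3 of the 5 members, Ckm, Ckb and Ak1, where 3.45% of all genes passed. The log2 change of Ckm was larger in Fam134bKO by 3.50 (SE 0.41, limma adjusted p = 9.64e-06), or by 1.63 with a pseudocount of 5 (adjusted p = 0.00575), although its rise in normalized counts was smaller. For Ckb the difference was 2.73 (SE 0.40, limma adjusted p = 0.000198), and the rise in normalized counts was 227 in Fam134bKO and 142 in WT. For Ak1 it was -0.77 (SE 0.18, limma adjusted p = 0.0163), with Ak1 already at 648 to 733 in Fam134bKO myoblasts and at 655 to 746 in Fam134bKO myotubes.

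The interaction did not pass for Adssl1 (-0.66, interval -2.36 to 1.04, limma adjusted p = 0.731) or for Ampd3 (0.03, interval -0.89 to 0.95, limma adjusted p = 0.985). For Adssl1 it passed without Fam134bKO myoblast replicate 2, at -1.58 (adjusted p = 0.0472).

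The balance between the 2 cytosolic subunits was described by the log2 ratio of Ckm to Ckb within each sample; it is not corrected for transcript length, so only its shifts between groups can be read, and it was not tested. It was -1.92, -2.15, -2.48 and -3.42 in WT myoblasts and 1.68, 0.90, 1.39 and 1.52 in WT myotubes. In Fam134bKO myotubes it was 0.74, 1.55, -0.12 and -0.44, a wider spread (SD 0.90 against 0.34 in WT myotubes, n = 4). The shift in WT rested mainly on Ckm, since Ckb changed by 0.49 on the log2 scale and Ckm by 4.36. In Fam134bKO myoblasts the ratio averaged -4.20, but as Ckm had at most 1 read there, it moved to -4.90 with a pseudocount of 0.5 and to -2.44 with a pseudocount of 5.

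**Figure D3:**
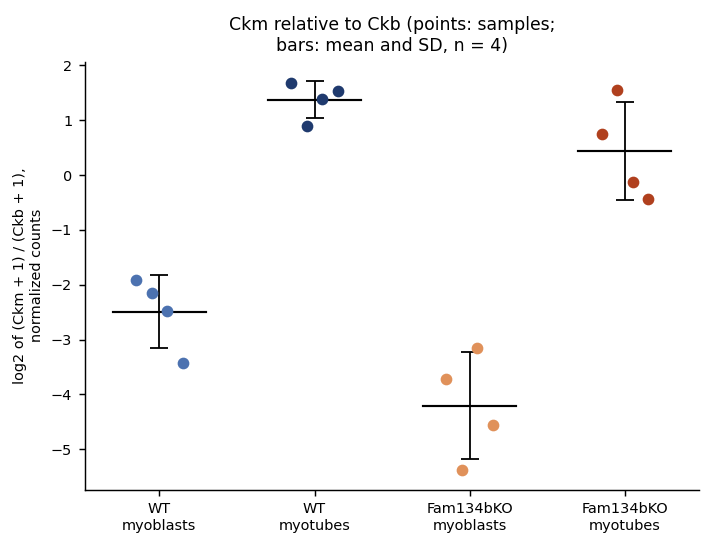
log2 ratio of Ckm to Ckb, each as the normalized count plus 1 (y axis), in the 4 groups (x axis); points are samples and bars the mean and SD over 4 samples. WT myotubes (0.90 to 1.68) lie above both myoblast groups, Fam134bKO myotubes run from -0.44 to 1.55, and the values of Fam134bKO myoblasts depend on the pseudocount.

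The genes whose log2 values followed Ckm most closely over the 16 samples were Tnni2 (fast troponin I, Pearson r = 0.995), Chrng (the embryonic acetylcholine receptor subunit, 0.992) and Cacng1 (a calcium channel subunit of skeletal muscle, 0.991). Tnni2 had mean normalized counts of 226 in WT myoblasts, 3322 in WT myotubes, 3.45 in Fam134bKO myoblasts and 788 in Fam134bKO myotubes, the order seen for Ckm. Closest to Ckb were Synpo2l (a Z-disc protein, 0.977), Hes6 (a myogenic transcriptional cofactor, 0.971) and Egr3 (an early-response transcription factor, 0.969). Hes6 had means of 793, 1035, 307 and 775 in the same order of groups. These correlations describe 16 points in 4 groups, are largely set by the group means, and carry no test.

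Creatine supply was followed through Gatm and Gamt, the enzymes of creatine synthesis, and Slc6a8, the creatine transporter. In WT all 3 rose on differentiation, with log2 fold changes of 1.80 for Gatm, 0.77 for Slc6a8 and 0.96 for Gamt, and a list median of 0.96 against -0.01 over all genes. In Fam134bKO 2 of the 3 rose, Gatm by 1.07 and Slc6a8 by 1.51, while Gamt had -0.01, and the interaction passed for Gamt (-0.97, limma adjusted p = 0.00547). Against WT, Gatm was lower in Fam134bKO at both stages, with log2 fold changes of -1.50 in myoblasts and -2.23 in myotubes. Gamt was higher in Fam134bKO myoblasts (0.55) and lower in Fam134bKO myotubes (-0.41).

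Other adenylate kinases were followed as 7 genes, of which Ak3 and Ak6 were tested and Ak4, Ak5, Ak7, Ak8 and Ak9 were too low. Ak6, of the nucleus, fell in WT and in Fam134bKO, with log2 fold changes of -1.35 and -0.65, where Ak1 rose in WT. Ak6 was lower in Fam134bKO than in WT myoblasts (-0.81) and Ak3 lower in Fam134bKO than in WT myotubes (-0.65).

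The remaining purine nucleotide cycle genes, Ampd2 and Adss (the non-muscle isoforms) and Adsl (the lyase), gave 0 calls of 3 in WT by limma, with 1 at an unadjusted p under 0.05. In Fam134bKO 2 of the 3 fell on differentiation, Ampd2 with -0.95 and Adss with -0.59. Between the genotypes at either stage and in the interaction 0 of the 3 passed by limma, and 0 had an unadjusted p under 0.05.

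Among 17 genes of AMP breakdown and purine salvage 12 were tested, and Nt5c1a, Nt5c1b, Nt5e, Xdh and Gda were too low. In WT 4 fell and 0 rose: Ada (adenosine deaminase, -2.73), Pnp (purine nucleoside phosphorylase, -0.98), Aprt (-0.86) and Gmps (-0.48). In Fam134bKO 4 fell and 1 rose, with Nt5c3b at -1.89, Ada at -1.77, Pnp at -1.61 and the nucleotidase Nt5c2 at 0.54. Ada was higher in Fam134bKO than in WT at both stages, by log2 fold changes of 1.89 in myoblasts (limma adjusted p = 0.0106) and 2.85 in myotubes (limma adjusted p = 0.000296). Impdh1 was higher in Fam134bKO myoblasts (0.50) and Nt5c3b lower in Fam134bKO myotubes (-1.47).

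The enzymes of de novo IMP synthesis, all 7 tested, gave 2 that fell in WT (Prps2 with -0.83 and Atic with -0.64) and 4 that fell in Fam134bKO (Prps2 with -0.76, Ppat with -0.71, Pfas with -0.63 and Atic with -0.54). None rose, and 0 of 7 passed by limma between genotypes, with 0 in myoblasts and 2 in myotubes at an unadjusted p under 0.05. The list median was -0.49 in WT and -0.54 in Fam134bKO.

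AMPK, the kinase that senses AMP, was represented by 7 subunits. The same 3 rose in WT and in Fam134bKO: the muscle gamma subunit Prkag3 with 4.02 and 3.96, the catalytic Prkaa2 with 1.81 and 1.44, and the beta subunit Prkab2 with 1.15 and 1.14. Prkag3 was lower in Fam134bKO at both stages (-1.27 in myoblasts and -1.33 in myotubes), and the other 4 subunits passed in no comparison.

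Of 6 nucleoside diphosphate kinases, Nme1 fell in WT (-0.79), and Nme3 (-2.12), Nme6 (-1.16) and Nme1 (-0.79) fell in Fam134bKO. Nme3 was lower in Fam134bKO than in WT myotubes (-3.18), and its interaction was -2.91 (limma adjusted p = 0.0484). Of 7 genes of mitochondrial adenylate and phosphate exchange 6 were tested (Slc25a31 was too low), and 0 passed in WT by limma, with 1 at an unadjusted p under 0.05. In Fam134bKO the ADP/ATP carriers Slc25a5 and Slc25a4 fell, with -0.95 and -0.46. Slc25a4 was higher in Fam134bKO myoblasts (0.59), and Slc25a5 and Vdac2 were lower in Fam134bKO myotubes (-0.91 and -0.39).

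Over these 8 lists 46 of 57 genes were tested; 6 rose and 8 fell in WT, where 13.8% of all genes rose and 9.16% fell, and 6 rose and 16 fell in Fam134bKO, where 17.3% of all genes rose and 16.1% fell. Between genotypes 4 were higher and 3 lower in Fam134bKO myoblasts (7.26% and 8.5% of all genes), and 1 was higher and 8 lower in Fam134bKO myotubes (9.74% and 13.7% of all genes). The interaction passed for 2 of the 46 (3.45% of all genes).

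**Figure D4:**
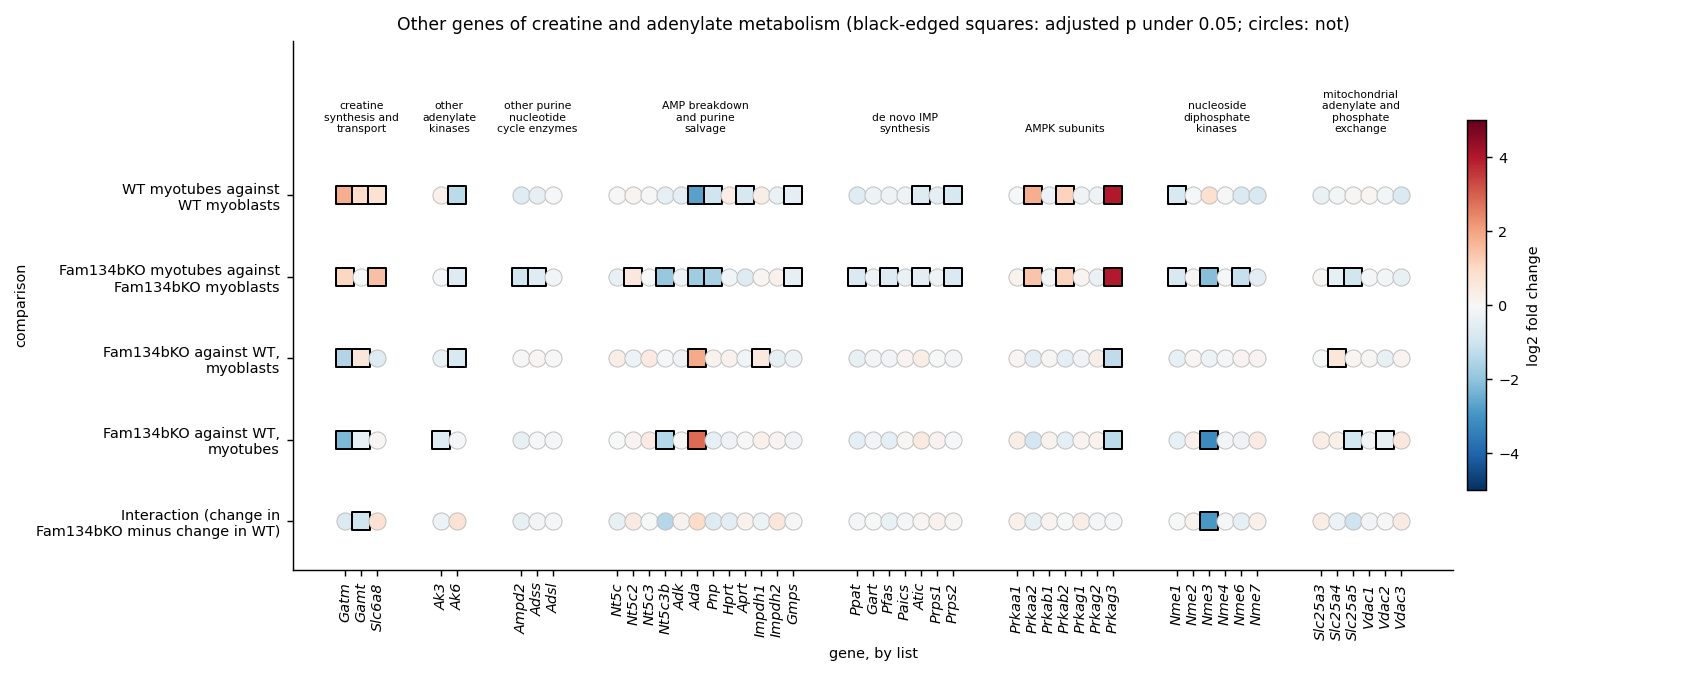
log2 fold change (colour scale) of the 46 tested genes of creatine and adenylate metabolism outside the 8 members (x axis, grouped by list) in the 5 comparisons (y axis); black-edged squares had a limma adjusted p under 0.05 and circles did not. Prkag3 (4.02 in WT and 3.96 in Fam134bKO) has the largest rise on differentiation in this plot and Ada (-2.73 in WT) the largest fall.

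The sarcomere and calcium pump genes that use ATP in myotubes, with proteins of the M-band, where muscle creatine kinase is bound, were followed as 11 genes, of which Myh2 was too low. All 10 tested rose in WT and in Fam134bKO, with median log2 fold changes of 4.96 and 5.92. Myh1, Myh4, Myh7, Myh8 and Myom3 were too low in myoblasts to pass the filter without myotube libraries. Their rise was thus favoured by the filter, and the count of 10 is no independent result beside the shares of all genes. Over all genes tested, 13.8% rose in WT and 17.3% in Fam134bKO. Against WT, 8.5% of all genes were lower in Fam134bKO myoblasts and 13.7% in Fam134bKO myotubes. The interaction passed for 3.45% of all genes. The largest fitted values in WT were those of Myh3 (6.38), Myh7 (6.18), Myh8 (5.88) and Myom2 (5.10), and in Fam134bKO those of Myh3 (10.37), Myom2 (7.89), Atp2a1 (7.89) and Myh7 (6.54). In Fam134bKO myoblasts Myh3, Atp2a1, Myom1 and Myom2 had at most 3 reads in any library and Myh1, Myh4, Myh7, Myh8 and Myom3 had none, so fitted values that use that group, and their medians, depend on the pseudocount and are no bounds. Against WT, these myoblasts without reads had log2 fold changes of only -0.56 for Myh8, -1.41 for Myh1 and -2.15 for Myom3. WT myoblasts were therefore near or under the floor for these 3 genes. Their WT rises, and the WT median, depend on the pseudocount as well. In Fam134bKO 6 of the 10 were lower in myoblasts, among them Myh3 (-5.08), Atp2a1 (-4.58), Myom2 (-3.58) and Myh7 (-2.96). In myotubes 7 were lower, among them Myh7 (-2.61), Myom1 (-1.99) and Atp2a1 (-1.60). The interaction passed for Myh3 (3.99), Atp2a1 (2.98) and Myom2 (2.79), all 3 with fitted changes that were larger in Fam134bKO and rest, as for Ckm, on few or no reads in Fam134bKO myoblasts.

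Of 12 regulators of muscle transcription 9 were tested, with Myf6, Ppargc1a and Esrrg too low. In WT 5 rose, led by Mef2c (3.36), Myog (3.23), Myod1 (1.45) and Mef2a (1.05), and 0 fell. In Fam134bKO 6 rose and 1 fell. Over all genes tested, 13.8% rose and 9.16% fell in WT, and 17.3% rose and 16.1% fell in Fam134bKO. In Fam134bKO myoblasts 6 were lower than in WT and 0 higher: Myod1 was at 5.81 to 15.7 normalized counts against 236 to 375, and Myog at 0 against 92.1 to 149. In Fam134bKO myotubes 3 were lower, Mef2c (-1.98), Myod1 (-1.43) and Six4 (-1.11). Of all genes, 8.5% were lower in Fam134bKO myoblasts and 13.7% in Fam134bKO myotubes. The interaction passed for Myog, Myod1 (3.39) and Mef2a (1.13), where 3.45% of all genes passed. Myf5, Esrra and Srf did not pass in myoblasts, with log2 fold changes of 0.68, 0.49 and -0.68. Any link between the levels of Ckm, Ckb and Adssl1 and those of these regulators was not tested.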

How the data were processed

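Total RNA of the 16 C2C12 samples was made into digital mRNA libraries and read from one end by a sequencing service. Per the submitters' processing notes, reads were aligned with STAR 2.6.0a to mm10 and counted with HTSeq. The authors deposited log2 values: the log2 of each gene's normalized count plus 1, for 31053 genes. Their normalization is not given in the sources used here, but 100% of the values above 0 are whole multiples of 1 step per library once the log2 is undone (tolerance 0.01 reads), so the reads behind each value are known. With 1 step taken as 1 read, the reads on genes summed to 1484750 to 3287461 per library. Intervals and floors (3 reads) cover counting error only. The design had assumed linear values, but the deposited values were already on the log2 scale, so no further log step was taken.

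A gene was tested when its normalized count was 10 or more in 4 or more samples, which left 10767 genes. They were fitted with limma 3.58.1 (R 4.3.3; lmFit, contrasts.fit, eBayes with a trend), with 4 group means and no covariates and p-values adjusted by Benjamini-Hochberg over all of them; a gene was called under 0.05. The fit was also run on simulated data drawn with the same spread setting in every group, so unequal spread between groups was not tested there. Samples were grouped by their titles, since the genotype field of the labels reads unknown. Samples are labelled biological replicates, with no statement of how the cultures were separated. Named genes are the 8 members, Fam134b, the 3 genes most correlated with Ckm and with Ckb, and, per list and comparison, up to 4 called genes with the largest change; list genes that were too low are named only. Members, lists and markers were chosen with earlier results of these data known. Motifs were searched in RefSeq promoter windows; positions come from GENCODE M21. Exact permutation tests used scipy 1.17.1. Alternatives were 11 other settings of pseudocount, filter, scaling, replicate block, samples fitted, sample weights and voom, and each of the 16 samples left out. Leaving out the 2 Fam134bKO myotube libraries with the fewest reads was chosen after seeing the data. Some genes of these lists are not reported here.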

Additional observations from a re-analysis of the deposited data

Results flagged for a closer look

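In 3 groups 1 sample lay far from the other 3 on the log2 scale, by the gap to its neighbour over the range of the group against Dixon's 95% critical value for 4 samples. Ckb was low in WT myoblast replicate 2 (277 normalized counts, gap over range 0.924), Ak1 in Fam134bKO myotube replicate 4 (655, 0.854) and Adssl1 in Fam134bKO myotube replicate 2 (16.1, 0.837). In all, 26 groups were examined, and chance alone marks about 1 in 20. Adssl1 in Fam134bKO myoblasts, where replicate 2 had no read, did not pass this criterion.

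The change on differentiation differed between Fam134bKO and WT, by limma's interaction term over 10767 genes with an adjusted p under 0.05, for 3 members: Ckm (3.50), Ckb (2.73) and Ak1 (-0.77), all on the log2 scale. Among the other genes followed it differed for Gamt (-0.97), Nme3 (-2.91), Myh3 (3.99), Atp2a1 (2.98), Myom2 (2.79), Myod1 (3.39), Mef2a (1.13) and Myog (6.32). It also differed for the other 7 myotube markers besides Myog, namely Myh3 as given, Mymk (5.39), Ttn (4.75), Tnnt3 (4.16), Actc1 (3.81), Mymx (3.24) and Actn2 (-3.47), and for the proliferation marker Mki67 (-1.58). Myog and Actn2 had no read in Fam134bKO myoblasts, and Mymk, Ttn, Actc1, Mymx, Myh3, Atp2a1 and Myom2 had at most 3 reads in any library there, so their fitted values depend on the pseudocount and are no bounds. Actn2 also had at most 3 reads in any WT myoblast library. For Ckm the sign depends on the scale as well: the rise was larger in Fam134bKO as a fold and smaller in normalized counts (320 against 1202).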

How the results depend on the processing

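The number of members called kept within 1.5 times its main value under every alternative but 1: without the filter on low values, 5 members passed in WT differentiation instead of 3, as Ckmt2 (8 reads at most) and Ampd1 (3 reads at most) entered the test. With 1 sample left out, the count was 3 in WT differentiation, 2 to 3 in Fam134bKO differentiation, 4 to 5 between myoblasts, 4 between myotubes and 3 to 4 in the interaction. Single calls were less stable than these counts. Counted by member, comparison and setting, 6 calls missed the threshold and 1 was gained with 1 sample left out. Under the other alternatives 5 calls missed it and 2 were gained. Values that changed sign were near 0 and below the threshold: under total scaling, Ak1 in Fam134bKO differentiation was -0.0051 and the Ampd3 interaction -0.0285, and with 1 sample left out the Ampd3 interaction ran from -0.19 to 0.39. Replicates with the same number did not deviate together (mean r 0.03, from -0.22 to 0.37 over 24 pairs of samples, against -0.01 for different numbers), so the numbers were not taken as pairs; with a replicate block the members called were 3, 3, 5, 4 and 3 in the 5 comparisons, as without it. Fam134b was lower at both stages under all alternatives. The cause of these shifts was not tested, apart from the added genes without the filter. Depth limits Ckmt1, Ckmt2, Ampd1, Adssl1 and, in Fam134bKO myoblasts, Ckm, whose folds there rest on 2 reads.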
